A study of Rattus norvegicus with 9 samples.

Results

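The genes described here encode leukocyte integrins, Fc receptors and adhesion molecules, measured by RNA sequencing in rat hippocampus after stroke. The set holds 10 genes: Itgam, Itgb2, Itgal, Itgax, Fcer1g, Fcgr1a, Fcgr2b, Icam1, Vcam1 and Selplg. They were chosen by symbol, with earlier results of these data known. All 10 were found among the 18733 genes of the deposited tables, and all 10 were among the 14840 genes left after a filter on low counts. Of the 10, 9 would have passed that filter on the control libraries alone, and Itgax would not.

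Hippocampal RNA from male rats was sequenced in 9 libraries, 3 in each of 3 groups, with 1 rat's tissue behind each library. The control rats were fed routinely, and whether they had a sham operation is not given in the sources used here. The PSCI group (post-stroke cognitive impairment) had middle cerebral artery occlusion (MCAO), a surgical blockage that models ischaemic stroke, followed by 2 weeks of regular feeding. The taVNS group had the same occlusion and then 14 days of transcutaneous auricular vagus nerve stimulation, an electrical stimulation through the skin of the ear. Both stroke groups were drawn at random from rats that had been included for low scores in 2 behavioural tests, so neither group stands for all rats with the occlusion. Strain, age and the side of the brain sampled are not given in the sources used here.

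Leukocyte integrins are pairs of an alpha and a beta chain that let white blood cells and microglia hold on to other cells, to matrix and to complement-coated particles. Fc receptors bind the constant part of antibodies and signal through tyrosine-based motifs, either to activate the cell or, for Fcgr2b, to restrain it. Icam1 and Vcam1 are displayed by endothelium and other cells as counter-receptors for integrins, and Selplg encodes PSGL-1, the selectin ligand that begins leukocyte rolling. In brain tissue, most of the integrin and Fc receptor genes are read mainly in microglia and macrophages.

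The promoters of Icam1 and Vcam1 are printed because both are textbook targets of the inflammatory factor NF-kB, while only Icam1 was called higher in PSCI. A stretch of the Itgam promoter is printed because Itgam carried most of the alpha-chain signal. Sequences come from RefSeq on the GRCr8 build and run 5′ to 3′ along the gene, and positions count back from the annotated start. The RefSeq promoter table held 4 of the 10 genes (Itgam, Itgax, Icam1 and Vcam1). Capitals mark the letters GGAAATTCC, GGGATTTCC and TATAAA, on either strand, in Icam1 and Vcam1, and GAGGAA in Itgam.
Icam1 promoter, chr8:27829595-27829844, plus strand: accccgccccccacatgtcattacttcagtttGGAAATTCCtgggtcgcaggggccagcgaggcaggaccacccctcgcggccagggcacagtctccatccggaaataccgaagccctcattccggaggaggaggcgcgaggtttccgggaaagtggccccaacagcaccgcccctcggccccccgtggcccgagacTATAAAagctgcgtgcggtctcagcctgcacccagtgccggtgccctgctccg
Vcam1 promoter, chr2:206742784-206743033, minus strand: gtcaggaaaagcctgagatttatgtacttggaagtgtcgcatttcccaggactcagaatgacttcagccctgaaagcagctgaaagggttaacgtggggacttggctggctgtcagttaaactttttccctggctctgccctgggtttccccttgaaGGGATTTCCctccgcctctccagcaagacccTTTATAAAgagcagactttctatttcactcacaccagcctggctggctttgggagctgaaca
Itgam promoter, chr1:192089342-192089461, plus strand: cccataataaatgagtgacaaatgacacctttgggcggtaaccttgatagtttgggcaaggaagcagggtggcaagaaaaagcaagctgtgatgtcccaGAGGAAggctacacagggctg

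The Icam1 window held GGAAATTCC, a form of the NF-kB site, at -218 to -210, and TATAAA at -53 to -48. The Vcam1 window held GGGATTTCC, a second form of the NF-kB site, at -93 to -85. TATAAA occurred in Vcam1 on both strands in overlapping positions, at -62 to -57 and -60 to -55. The Itgam stretch held GAGGAA, the core bound by the myeloid factor PU.1, at -151 to -146, and a second match lay on the other strand at -39 to -34, outside the printed stretch. None of these motifs was found in the Itgax promoter. Among 33469 promoters of the same 300 bases, searched on both strands, 0.332% held GGAAATTCC, 0.326% held GGGATTTCC, 14.2% held TATAAA and 27.6% held GAGGAA. Only the exact letters named were searched, so other forms of these sites in the windows are unmarked. A match is a description of letters and was not tested for binding.

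Library totals lay between 13747389 and 15415694 estimated counts, so that 3 counts corresponded to 0.191 to 0.220 CPM (counts scaled to the library total, adjusted by TMM). Neuronal markers of the hippocampus were abundant in all 9 libraries, with Camk2a between 1090 and 4045 CPM. Over 12 neuronal genes, the mean log2 CPM was lowest in PSCI library 2, at 6.99, against 7.42 to 7.95 in the other libraries. The mean log2 CPM of 12 meningeal and fibroblast genes was 4.66 in PSCI library 2 and 4.82 in taVNS library 3, against 2.06 to 2.97 in the other 7, so these 2 libraries stood apart in tissue content. PSCI library 2 also had the highest value of all 9 libraries for each of the 8 genes that rose in PSCI. Calls that were lost with both of these libraries left out are named beside the results. In bulk tissue, fewer cells of a type and less RNA per cell cannot be told apart.

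The comparison of PSCI with control asks how the impaired hippocampus differed from the control hippocampus. All 4 beta-2 integrin genes, all 3 Fc receptor genes and Icam1 were higher in PSCI, between 2.71-fold for Fcer1g and 19.1-fold for Itgax. Selplg moved the other way and was 1.63-fold lower. Vcam1 did not pass the test. Of the 10 genes, 8 were called higher and 1 lower at an adjusted p under 0.05, with a median log2 fold change of 2.05. Among all 14840 genes tested, 9.85% were called, 7.71% higher and 2.14% lower, with a median near 0. The 3 values of each group did not overlap for 9 of the 10 genes, as against 27.4% of all genes. As the 10 genes were chosen with earlier results of these data known, such contrasts with all genes are descriptions. Throughout, fold changes, standard errors (SE) and adjusted p-values are from edgeR's quasi-likelihood test with Benjamini-Hochberg adjustment over all genes tested, with 3 libraries a group.

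**Figure D1:**
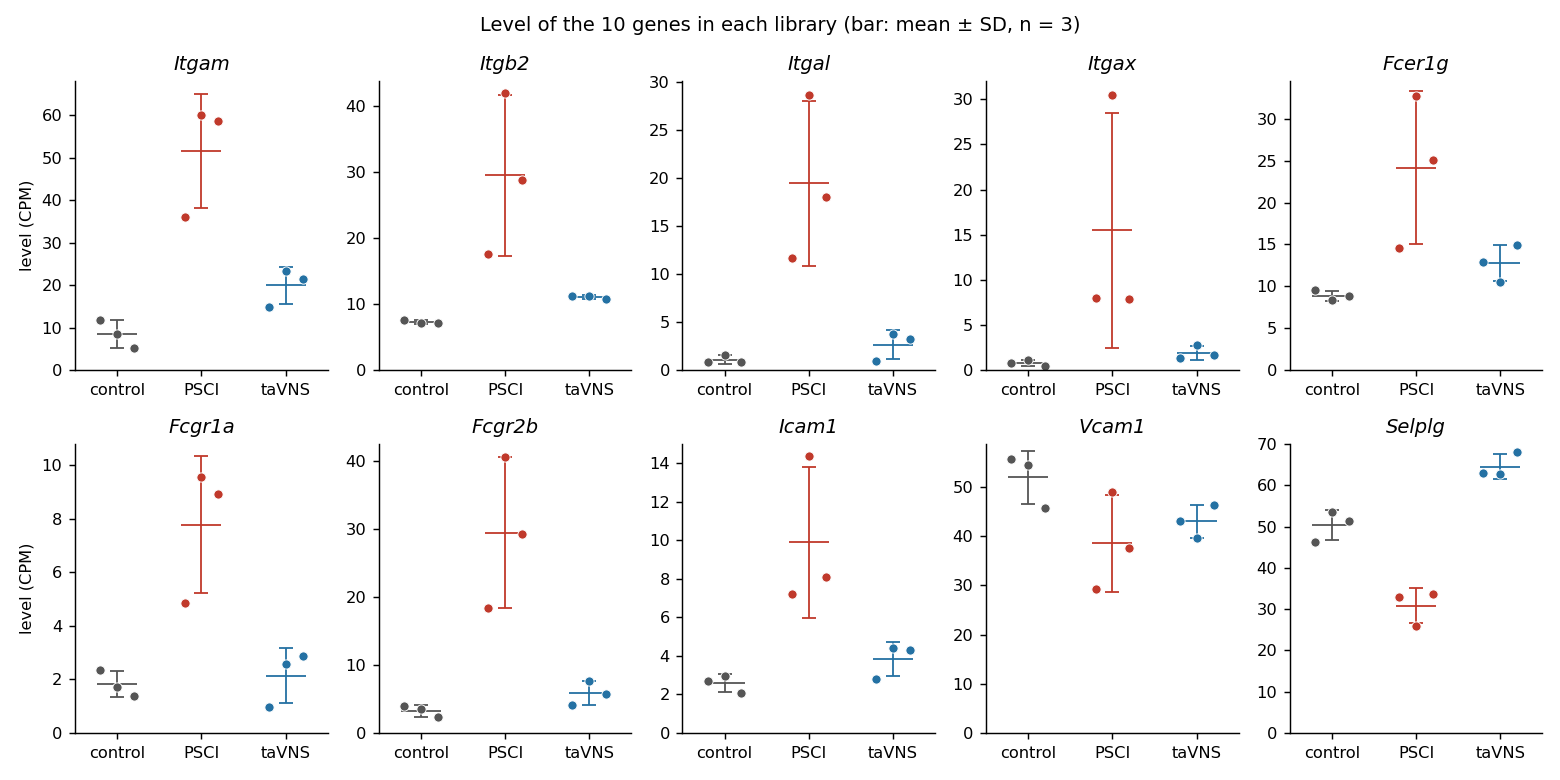
Level in CPM (linear axis from 0) of the 10 genes in each of the 9 libraries, one panel per gene, with points for single libraries and bars for the group mean ± SD. In 8 panels every PSCI point lies above every control point, in the Selplg panel every PSCI point lies below the other groups, and in the Vcam1 panel the groups overlap.

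Itgam encodes CD11b, the alpha chain of complement receptor 3, which takes up complement-coated material. Its values were 11.7, 8.50 and 5.14 CPM in the control libraries, 36.1, 60.0 and 58.8 CPM in PSCI, and 15.0, 23.4 and 21.5 CPM in taVNS. The 3 groups did not overlap, and taVNS lay between the others. PSCI was 6.09-fold above control (log2 2.61 ± 0.319 SE, adjusted p = 0.00248).

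Itgax encodes CD11c, the alpha chain of complement receptor 4, carried by dendritic cells and by some activated microglia. It was scarce in control, at 0.759, 1.13 and 0.514 CPM, from only 7 to 16 counts a library. PSCI libraries held 8.04, 30.5 and 7.90 CPM, and taVNS libraries 1.33, 2.80 and 1.71 CPM. Library 2 of PSCI alone was almost 4 times as high as its companions in counts, and every PSCI value exceeded every other value. The difference from control was 19.1-fold (log2 4.25 ± 0.644 SE, adjusted p = 0.00560) and fell to a log2 of 3.30 without PSCI library 2 (adjusted p = 0.00176). The deposited RPKM values (reads scaled to gene length and library total) gave a larger ratio, 38.6-fold, because 1 RPKM stood for 160 to 220 counts of Itgax in control and for 84 to 113 counts in PSCI, so the size of this change depends on the scale used.

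Itgal encodes CD11a, the alpha chain of LFA-1, which lymphocytes and other leukocytes use to bind Icam1. It too was near the lower limit in control, with 0.897, 1.63 and 0.808 CPM from 11 to 23 counts. In PSCI it reached 11.7, 28.7 and 18.0 CPM, and in taVNS 0.981, 3.78 and 3.21 CPM. The PSCI values stood clear of both other groups, while taVNS library 1 lay within the control range. PSCI exceeded control 17.4-fold (log2 4.12 ± 0.542 SE, adjusted p = 0.00324).

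Itgb2 encodes CD18, the beta chain that all of these alpha chains need to reach the cell surface. Control libraries held 7.59, 7.15 and 7.13 CPM, PSCI libraries 17.6, 42.0 and 28.8 CPM, and taVNS libraries 11.2, 11.3 and 10.8 CPM. Control and taVNS were tight and separate, whereas PSCI spread over a more than 2-fold range. The rise in PSCI was 4.04-fold (log2 2.01 ± 0.270 SE, adjusted p = 0.00347).

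Fcer1g encodes the common gamma chain, the signalling adaptor that activating Fc receptors share. It was measured at 9.52, 8.36 and 8.82 CPM in control, 14.6, 32.8 and 25.1 CPM in PSCI and 12.96, 10.6 and 14.9 CPM in taVNS. Every PSCI value was above control, but PSCI library 1 overlapped the taVNS range. The rise over control was 2.71-fold (log2 1.44 ± 0.268 SE, adjusted p = 0.0118). This call was lost without control library 2 (adjusted p = 0.0546) or control library 3 (adjusted p = 0.0525).

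Fcgr1a encodes CD64, the high-affinity receptor for IgG. Its levels were 2.35, 1.70 and 1.40 CPM in control, 4.84, 9.56 and 8.94 CPM in PSCI and 0.981, 2.59 and 2.87 CPM in taVNS, with PSCI above both other groups. The PSCI rise was 4.27-fold (log2 2.09 ± 0.423 SE, adjusted p = 0.0162). It did not pass without control library 2 (adjusted p = 0.0694), control library 3 (adjusted p = 0.0750) or PSCI library 3 (adjusted p = 0.0552).

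Fcgr2b encodes the inhibitory IgG receptor, which carries its own inhibitory motif and does not use Fcer1g. Control libraries held 3.93, 3.54 and 2.28 CPM, PSCI libraries 18.4, 40.6 and 29.2 CPM and taVNS libraries 4.13, 7.62 and 5.74 CPM. No group overlapped another. PSCI was 9.01-fold higher than control (log2 3.17 ± 0.353 SE, adjusted p = 0.00166), the smallest adjusted p of the 10 genes in this comparison. Fcgr2b resembles its neighbours Fcgr2a and Fcgr3a in sequence, and its estimated count was not a whole number in at least 1 library (637.49 in PSCI library 2), so the split of reads between these genes is uncertain.

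Icam1 encodes the endothelial and glial ligand of LFA-1 and of complement receptor 3. It measured 2.69, 2.98 and 2.06 CPM in control, 7.22, 14.4 and 8.09 CPM in PSCI and 2.80, 4.41 and 4.30 CPM in taVNS. PSCI was the highest group without overlap, and taVNS library 1 fell within the control range. The rise in PSCI was 3.84-fold (log2 1.94 ± 0.319 SE, adjusted p = 0.00722).

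Vcam1 encodes the ligand of the integrin VLA-4. Its values were 55.7, 54.4 and 45.8 CPM in control, 29.2, 48.9 and 37.5 CPM in PSCI and 43.1, 39.7 and 46.4 CPM in taVNS. PSCI library 2, the highest for the 8 genes that rose, was also the highest PSCI library here and lay inside the control range. The log2 fold change against control was -0.43 ± 0.174 SE (adjusted p = 0.161), so Vcam1 was not called. Without PSCI library 2 the log2 fold change was -0.63 and passed the test (adjusted p = 0.0293).

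Selplg measured 46.4, 53.5 and 51.4 CPM in control, 33.0, 25.9 and 33.6 CPM in PSCI and 62.9, 62.7 and 68.0 CPM in taVNS. PSCI was lowest and taVNS highest, with no overlap between any of the 3 groups. PSCI library 2, the highest for the genes that rose, was the lowest for Selplg. The log2 fold change in PSCI was -0.71 ± 0.116 SE (adjusted p = 0.00719).

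Levels can be compared between genes on the RPKM scale, which corrects for length. In control the order of mean RPKM (± SD, n = 3) began with Fcer1g at 24.4 ± 1.19, Selplg at 23.6 ± 0.851 and Vcam1 at 18.7 ± 1.81. Fcer1g and Selplg did not differ beyond their spread. Itgb2 at 2.53 ± 0.0635 and Itgam at 2.41 ± 0.921 followed and overlapped, as did Fcgr1a at 1.82 ± 0.474 and Fcgr2b at 1.69 ± 0.602. Icam1 at 0.983 ± 0.214, Itgal at 0.287 ± 0.125 and Itgax at 0.0633 ± 0.0321 were the lowest. In PSCI, Fcer1g stayed first at 69.3 ± 28.6 RPKM, and Fcgr2b at 19.1 ± 8.39, Selplg at 16.1 ± 1.41, Itgam at 15.4 ± 4.19 and Vcam1 at 14.4 ± 4.18 overlapped with one another. Itgb2 at 10.7 ± 4.77 and Fcgr1a at 8.17 ± 2.86 came next, and Itgax at 2.44 ± 2.09 RPKM was still the lowest by mean. In taVNS the top 3 were again Fcer1g at 35.4 ± 6.65, Selplg at 32.9 ± 1.94 and Vcam1 at 15.8 ± 1.68 RPKM, and the first pair overlapped.

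The comparison of taVNS with PSCI asks what differed between stroke rats with and without stimulation. All 4 beta-2 integrin genes, Fcgr1a, Fcgr2b and Icam1 were lower in taVNS, from 2.58-fold for Icam1 to 7.94-fold for Itgax. Selplg was 2.09-fold higher in taVNS. Fcer1g and Vcam1 did not pass. With 7 genes called lower and 1 higher, the set's median log2 fold change was -1.39. Among all genes 5.75% were called, 4.91% lower and 0.842% higher, with a median near 0. Groups did not overlap for 8 of the 10 genes and for 25.9% of all genes. The PSCI libraries serve in both comparisons, so a high PSCI value enters both.

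**Figure D2:**
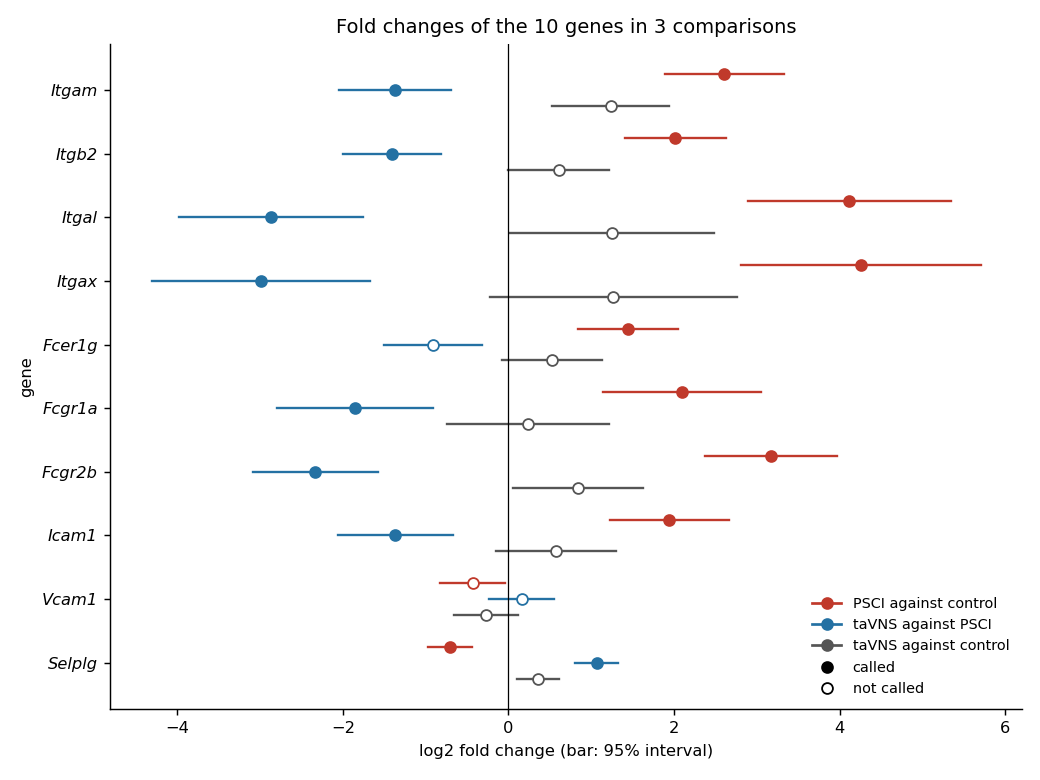
Log2 fold changes of the 10 genes with 95% intervals in the 3 comparisons, from edgeR's quasi-likelihood fit, with filled points for genes called at an adjusted p under 0.05. Selplg lies on the opposite side of 0 from the 7 genes called lower in taVNS than in PSCI, and no point is filled for taVNS against control.

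Fcgr2b showed the smallest adjusted p among the genes that were lower in taVNS, at a log2 fold change of -2.33 ± 0.335 SE (adjusted p = 0.00696). Itgal followed with -2.87 ± 0.495 SE (adjusted p = 0.0141) and Itgb2 with -1.41 ± 0.262 SE (adjusted p = 0.0176). Itgax was lower by -2.99 ± 0.585 SE (adjusted p = 0.0214), and by -2.03 without PSCI library 2 (adjusted p = 0.0153). The calls of Itgam (-1.37 ± 0.301 SE, adjusted p = 0.0329), Fcgr1a (-1.85 ± 0.417 SE, adjusted p = 0.0360) and Icam1 (-1.37 ± 0.309 SE, adjusted p = 0.0368) were the closest to the threshold. Selplg was higher by 1.07 ± 0.117 SE (adjusted p = 0.00244). Fcer1g had a log2 fold change of -0.91 ± 0.263 SE (adjusted p = 0.0810) and passed without PSCI library 1 (adjusted p = 0.00417). DESeq2 on all 9 libraries also called Fcer1g lower (adjusted p = 0.0217), which made 9 of the 10 genes called. Vcam1 stood at 0.16 ± 0.174 SE (adjusted p = 0.657), with a 95% interval from -0.23 to 0.55.

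These calls differed in how far they rested on single libraries. Fcgr2b and Selplg passed under all 17 alternative settings, and Itgal under all but the fit to the 2 groups alone (adjusted p = 0.0560). Leaving out taVNS library 1, 2 or 3 left 3 of the 10 genes called each time, Fcgr2b, Selplg and Itgal. The other 5 lost their calls, with adjusted p-values up to 0.0793 for Itgb2, 0.103 for Itgax, 0.115 for Fcgr1a, 0.139 for Itgam and 0.139 for Icam1 over all settings. Without PSCI library 2 or without PSCI library 3, 5 and 4 genes were called. Without control library 2, 5 were called, and without control library 1, 6. With both libraries high in meningeal markers left out, 4 were called: Itgal, Itgax, Fcgr2b and Selplg. Itgb2 (adjusted p = 0.0553), Fcgr1a (adjusted p = 0.0843), Icam1 (adjusted p = 0.109) and Itgam (adjusted p = 0.114) were then not called.

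Against control, the stimulated stroke rats showed no called gene among the 10 by edgeR or by DESeq2. Across all genes, edgeR called 0 (0%) and DESeq2 called 7, and 557 genes (3.75%) had an unadjusted p under 0.05. The set had 4 such genes, Itgam, Itgal, Fcgr2b and Selplg, and each adjusted p was 0.9999. The taVNS mean was above the control mean for 9 of the 10 genes, with Vcam1 the exception, and the median log2 fold change was 0.59. Groups did not overlap for 6 of the 10, as against 11.1% of all genes: Itgam, Itgb2, Itgax, Fcer1g, Fcgr2b and Selplg. Itgam was 2.35-fold above control, with a 95% interval from 1.44 to 3.84. Selplg was 1.28-fold above control, with an interval from 1.07 to 1.53. For Fcgr1a the interval ran from 0.600-fold to 2.33-fold, which spans both directions.

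The beta-2 integrin alpha chains were next compared as shares of their sum. Shares were taken of the summed RPKM of Itgam, Itgal, Itgax and Itgad, the fourth alpha chain and a close relative that follows Itgam and Itgax on the chromosome. Itgam made up 92.2, 82.3 and 86.0% of the sum in control, 72.6, 59.4 and 73.1% in PSCI and 91.8, 85.8 and 86.2% in taVNS. Itgal made up 6.41, 14.4 and 11.7% in control, 20.3, 24.9 and 20.3% in PSCI and 5.70, 11.6 and 11.7% in taVNS. PSCI thus had the lowest Itgam shares and the highest Itgal shares without overlap, and control and taVNS overlapped.

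By group mean, the Itgam share was 86.8 ± 5.02% (SD, n = 3) in control, 68.4 ± 7.75% in PSCI and 87.9 ± 3.36% in taVNS. The Itgax share was 2.36 ± 0.976% in control, 9.61 ± 5.10% in PSCI and 2.21 ± 0.368% in taVNS. Its difference between PSCI and control was 7.25 percentage points and 4.32 without PSCI library 2. As 1 RPKM stood for 160 to 220 counts of Itgax in control and 84 to 113 in PSCI, the size of this difference depends on the RPKM scale. With 0.1 RPKM added to every value, which weighs most on the scarce chains, PSCI minus control was -10.9 points for Itgam in place of -18.4, and 4.48 for Itgax. For Itgam, Itgal and Itgax, PSCI differed from control and from taVNS at p = 0.1 in a two-sided exact permutation test, which is the smallest p that 3 libraries against 3 can give. Between taVNS and control the exact p was 0.9 for Itgam, 0.5 for Itgal and 0.8 for Itgax. Itgad had 0 counts in all control libraries and at most 4 in any library, and its share never passed 0.422%.

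**Figure D3:**
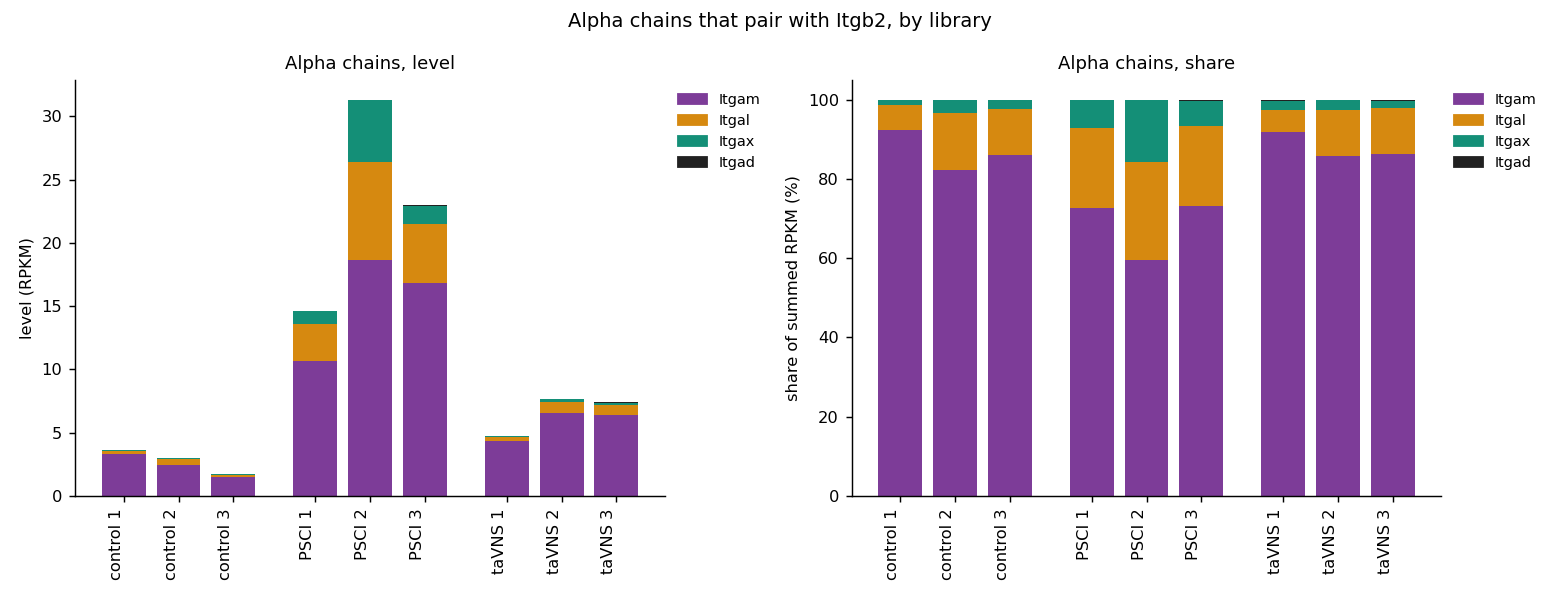
Stacked bars of the 4 beta-2 integrin alpha chains by library, as levels in RPKM (left) and as shares of their sum in percent (right). PSCI libraries show Itgam shares of 59.4 to 73.1% and the other 6 libraries shares of 82.3 to 92.2%.

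The summed alpha chains were also set against their shared beta chain. The ratio of the alpha sum to Itgb2, both in RPKM, was 1.09 ± 0.360 (SD, n = 3) in control, 2.21 ± 0.194 in PSCI and 1.68 ± 0.443 in taVNS. PSCI lay above both other groups without overlap (exact permutation p = 0.1 each, two-sided), and taVNS against control gave an exact p of 0.3.

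The mixture of IgG receptors was compared in the same way, a measure chosen after the values had been seen. Fcgr2b held 14.1, 13.7 and 11.1% of the summed RPKM of Fcgr1a, Fcgr2a, Fcgr2b and Fcgr3a in control, 32.5, 28.6 and 29.8% in PSCI, and 15.1, 25.8 and 22.3% in taVNS. The PSCI shares were the highest and the control shares the lowest, with taVNS between them and no overlap. Fcgr2a, an activating receptor, held 57.3 ± 5.28% (SD, n = 3) in control, 26.7 ± 5.01% in PSCI and 43.1 ± 3.91% in taVNS. The share of Fcgr3a, also an activating receptor, was 15.4 ± 4.83% in control, 29.7 ± 4.02% in PSCI and 22.2 ± 6.76% in taVNS, so the shares of this activating receptor and of the inhibitory Fcgr2b were both higher in PSCI. The Fcgr1a share was 14.3 ± 0.652% in control, 13.4 ± 2.42% in PSCI and 13.6 ± 4.56% in taVNS. For Fcgr2b and Fcgr2a each pair of groups gave an exact permutation p of 0.1, the smallest possible, and for Fcgr1a the exact p was 0.8 or above. For Fcgr3a the exact p was 0.1 in PSCI against control, 0.2 in taVNS against PSCI and 0.3 in taVNS against control. How reads of the 3 similar neighbours were divided was not tested.

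**Figure D4:**
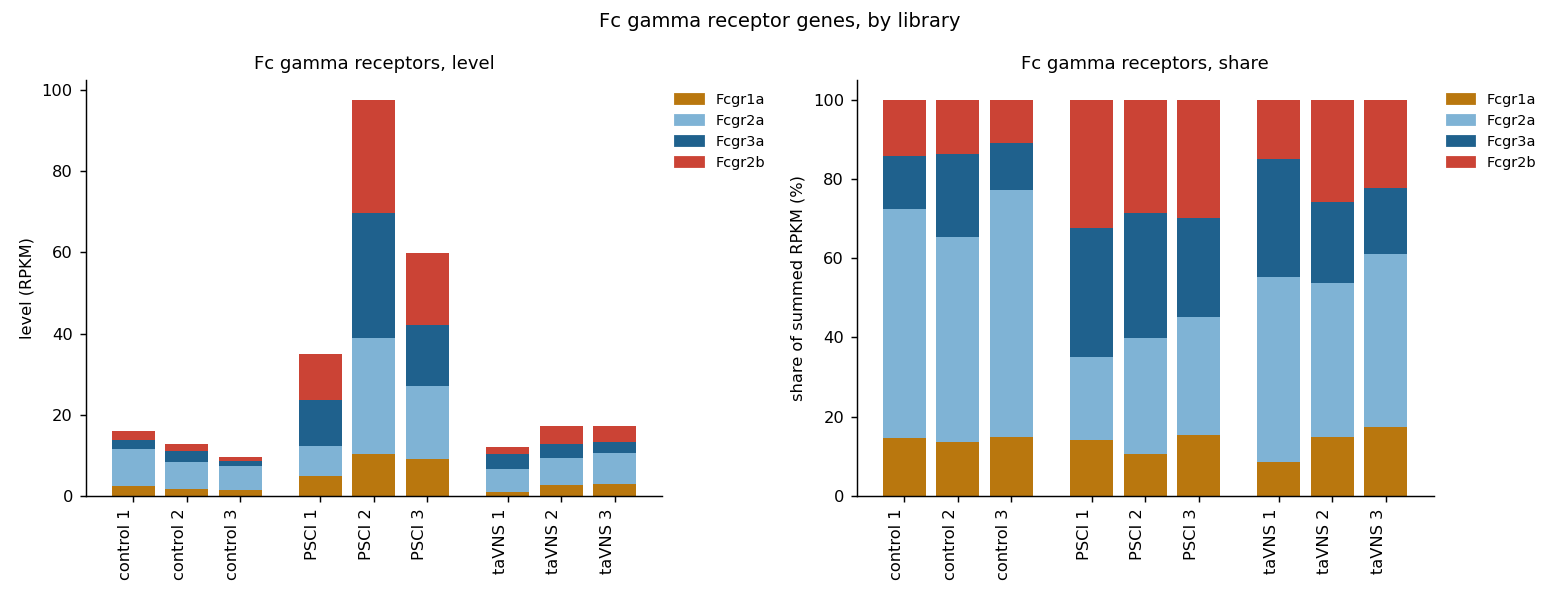
Stacked bars of 4 IgG receptor genes by library, as levels in RPKM (left) and as shares of their sum in percent (right). The Fcgr2b share ranges from 11.1 to 14.1% in control, 28.6 to 32.5% in PSCI and 15.1 to 25.8% in taVNS, while the Fcgr1a share lies between 8.53 and 17.4% in all 9.

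The genes that work with these receptors were followed through lists. Of 19 tested Fc receptor and signalling genes, 14 were higher and 0 lower in PSCI than in control, with a median log2 fold change of 1.85. In taVNS against PSCI 0 were higher and 11 lower, with a median of -1.44. For this and the later lists, the shares among all genes tested give the scale. In PSCI against control 7.71% of all genes were higher and 2.14% lower. In taVNS against PSCI the shares were 0.842% higher and 4.91% lower. Fcgr3a, an activating IgG receptor that pairs with Fcer1g, was higher in PSCI (log2 3.19 ± 0.411 SE, adjusted p = 0.00302) and lower in taVNS than in PSCI (-2.47, adjusted p = 0.0105, or 0.0560 without taVNS library 1). Tyrobp, the DAP12 adaptor, gave 2.38 (adjusted p = 0.00403) and -1.61 (adjusted p = 0.0230). Ptpn6, the SHP-1 phosphatase, gave 2.20 (adjusted p = 0.00376) and -1.66 (adjusted p = 0.0151), and Vav1, an exchange factor downstream of Fc receptors, gave 2.87 (adjusted p = 0.00386) and -1.75 (adjusted p = 0.0290). Syk, the kinase recruited by Fcer1g, was higher in PSCI (1.37, adjusted p = 0.0211) and was not called in taVNS against PSCI (-0.78, adjusted p = 0.162) except without PSCI library 1. Fcgr2a was not called in either (2.30-fold, adjusted p = 0.0880, and a log2 fold change of -1.34, adjusted p = 0.0855), and passed in both without PSCI library 1 and with DESeq2.

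Several of these calls also rested on single libraries. The rise of Syk in PSCI did not pass without control library 2, control library 3 or PSCI library 3, or without both libraries high in meningeal markers (adjusted p up to 0.0851 over all settings). In taVNS against PSCI, Tyrobp and Vav1 did not pass without PSCI library 3 or any 1 taVNS library, and Vav1 also without control library 2, while Ptpn6 did not pass without taVNS library 1 or 2. Tyrobp and Vav1 also lost this call without both libraries high in meningeal markers.

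Integrin activation genes link the cytoskeleton to the integrin tails. In PSCI 8 of 20 were higher and 0 lower (median log2 fold change 0.41), and in taVNS against PSCI 0 were higher and 7 lower (median -0.43). Rac2, the small GTPase of blood cells, rose by 3.28 on the log2 scale (adjusted p = 0.00144) and was lower in taVNS than in PSCI by -2.56 (adjusted p = 0.00510), and it passed under all 17 alternatives in both. Fermt3, the kindlin that activates integrins in leukocytes, gave 2.19 (adjusted p = 0.00359) and -1.63 (adjusted p = 0.0151). Fyb1, a leukocyte adaptor, gave 2.06 (adjusted p = 0.00286) and -1.33 (adjusted p = 0.0193), and Dock2, a leukocyte exchange factor for Rac, gave 2.26 (adjusted p = 0.00302) and -1.37 (adjusted p = 0.0258). Without taVNS library 1 or 2 the second call was lost for Fermt3, Fyb1 and Dock2, and for Dock2 also without taVNS library 3, PSCI library 3, control library 2 or both libraries high in meningeal markers.

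Of 19 other integrin chains tested, 8 were higher and 0 lower in PSCI (median log2 fold change 0.67), and 0 were higher and 3 lower in taVNS against PSCI (median -0.47). Itgb1, the most widely shared beta chain and the partner of Itga4 in VLA-4, measured 81.2 ± 5.53 CPM (SD, n = 3) in control, 140.9 ± 39.6 CPM in PSCI and 83.8 ± 4.81 CPM in taVNS. Its log2 fold change was 0.79 in PSCI (adjusted p = 0.0233) and -0.75 in taVNS against PSCI (adjusted p = 0.0417). Dropping control library 1, 2 or 3, or PSCI library 3, ended the first call, and dropping any library but PSCI library 1, or both libraries high in meningeal markers, ended the second. Itga4, the Vcam1 receptor chain, was not called (0.11, adjusted p = 0.887, and -0.16, adjusted p = 0.834). Itga9 rose in PSCI by 0.95 (adjusted p = 0.0154) and Itga1, a collagen receptor chain, by 1.23 (adjusted p = 0.0216), and neither was called in taVNS against PSCI. Itga9 did not pass without control library 1 or 2, and Itga1 not without control library 1, control library 3 or PSCI library 3. Itgb3, the beta chain of the platelet and vitronectin receptors, was called higher at 1.44 to 1.98 CPM in PSCI against 0 to 0.212 CPM in control, where it lay at or near the lower limit of 3 counts. With 6 to 8 counts in taVNS and 22 to 31 in PSCI, it passed the filter on low counts through PSCI, the group where it was high. Its call, which is among the 8 above, carries that limit.

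Other adhesion genes of endothelium and leukocytes gave 1 call among 20 tested. Of all genes, 9.85% were called in PSCI against control and 5.75% in taVNS against PSCI. Cd44, the hyaluronan receptor, was higher in PSCI (log2 2.60, adjusted p = 0.0160) and lower in taVNS than in PSCI (-2.20, adjusted p = 0.0409). Cd44 spread from 27.9 to 153.6 CPM over the PSCI libraries, and without PSCI library 2 its values were 1.74 and -1.33. The first call was lost without control library 2 or 3, and the second without any 1 library other than PSCI library 1 or 2, or without both libraries high in meningeal markers. The endothelial adhesion genes Pecam1 (0.56, adjusted p = 0.187) and Icam2 (0.49, adjusted p = 0.415) were not called in PSCI. Selp, encoding the P-selectin that binds PSGL-1, had 0 counts in all control and taVNS libraries and up to 25 counts in PSCI, and Itgb7 reached at most 19 counts. Both genes and Itgad were below the filter and were not tested.

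Markers of other cell types were read in the same libraries. The mean log2 CPM of 13 microglial genes other than Selplg was 3.80 to 4.16 in control, 4.57 to 5.24 in PSCI and 4.16 to 4.46 in taVNS. The 12 monocyte and border macrophage genes summed to 5.73 to 7.22 CPM in control, 28.8 to 120.2 CPM in PSCI and 7.78 to 21.6 CPM in taVNS, and of the 8 tested, 4 were higher in PSCI and 2 lower in taVNS than in PSCI. Ccr2, a defining monocyte gene, had 0 to 1 count in control, 5 to 28 in PSCI and 2 in taVNS. The 10 neutrophil genes found had a mean log2 CPM of -1.83 to -1.24, -0.84 to -0.19 and -1.44 to -1.06 in the 3 groups, with 2 of 3 tested higher in PSCI and lower in taVNS than in PSCI. Lcn2 had 4 to 8 counts in control and 70 to 428 in PSCI, and Csf3r 37 to 43 and 168 to 248. In PSCI, Elane was at 0, Camp at 0 to 1, Mpo at 1 to 3, Mmp8 at 0 to 3 and Cxcr2 at 1 to 7 counts. S100a8 lay at 1 to 14, S100a9 at 3 to 20 and Cxcr1 at 4 to 110 counts in PSCI (Cxcr1 20 to 64 in control). The 13 T and NK cell genes summed to 2.06 to 2.48, 6.40 to 16.3 and 2.03 to 3.35 CPM, 1 of 3 tested was higher in PSCI, and the CD3 gene Cd3d was at 0 in every PSCI library. Cd8a had 0 counts in control and 5 to 153 in PSCI, Cd8b 0 and 2 to 18, and Cd3e 0 to 15 and 2 to 208. The highest Cd3e value, 14.2 CPM, was in PSCI library 1 and made up most of that library's sum of 16.3 CPM. The highest Cd8a value was in PSCI library 2, where Cd3e had 2 counts, so these maxima rest on single, different libraries. The 6 B cell genes found summed to 5.11 to 7.51, 7.24 to 7.84 and 4.90 to 11.3 CPM, and the 1 tested was not called. Of 11 endothelial genes tested, 2 were higher in PSCI and 0 lower, as against 7.71% and 2.14% of all genes. The 12 listed endothelial genes summed to 234.5 to 412.3 CPM in control, 438.3 to 511.7 CPM in PSCI and 327.4 to 440.1 CPM in taVNS. None of the 12 meningeal genes was called, but in PSCI against control their median log2 fold change was 1.96 and 10 of 12 were positive. Of the 12, 7 did not overlap between the groups, as against 27.4% of all genes. The mean log2 CPM of the 12 meningeal genes was 2.19 to 2.35 in control, 2.72 to 4.66 in PSCI and 2.06 to 4.82 in taVNS. Every PSCI library thus lay above every control library. The 7 platelet and red cell genes found summed to 72.1 to 79.3 CPM in control, 21.1 to 66.2 CPM in PSCI and 103.3 to 263.8 CPM in taVNS. Of the 3 tested, 0 were called in PSCI against control and 2, Hbb and Alas2, were higher in taVNS than in PSCI. None of the 12 neuronal genes was called. Their mean log2 CPM was 7.62 to 7.90 in control, 6.99 to 7.91 in PSCI and 7.42 to 7.95 in taVNS. In the monocyte, neutrophil and T and NK cell lists, scarce genes could pass the filter on low counts through PSCI alone. Cd14, for example, had 4 to 6 counts in control, 8 to 18 in taVNS and 183 to 448 in PSCI. The numbers called among the tested genes of these lists therefore do not measure how much of each list changed. The part of these cell types in the results above was not tested.

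The genes were then set against the microglial genes of the same library. Itgam minus the microglial mean, in log2 CPM, was -0.59, -0.85 and -1.40 in control, 0.61, 0.67 and 0.93 in PSCI and -0.32, 0.39 and -0.02 in taVNS. The mean difference between PSCI and control was 1.68 for Itgam, 0.96 for Itgb2, 1.04 for Fcgr1a and 2.14 for Fcgr2b, without overlap and each at the smallest possible exact permutation p of 0.1. Fcer1g differed by 0.40 with overlapping groups (exact p = 0.2). In taVNS against PSCI the differences were -0.72 for Itgam, -0.68 for Itgb2, -1.23 for Fcgr1a and -1.64 for Fcgr2b (exact p = 0.1 each), and -0.21 for Fcer1g (exact p = 0.3). Against control, Itgam in taVNS was 0.96 higher relative to the microglial genes without overlap (exact p = 0.1), and the other 4 gave exact p-values from 0.2 to 0.9.

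**Figure D5:**
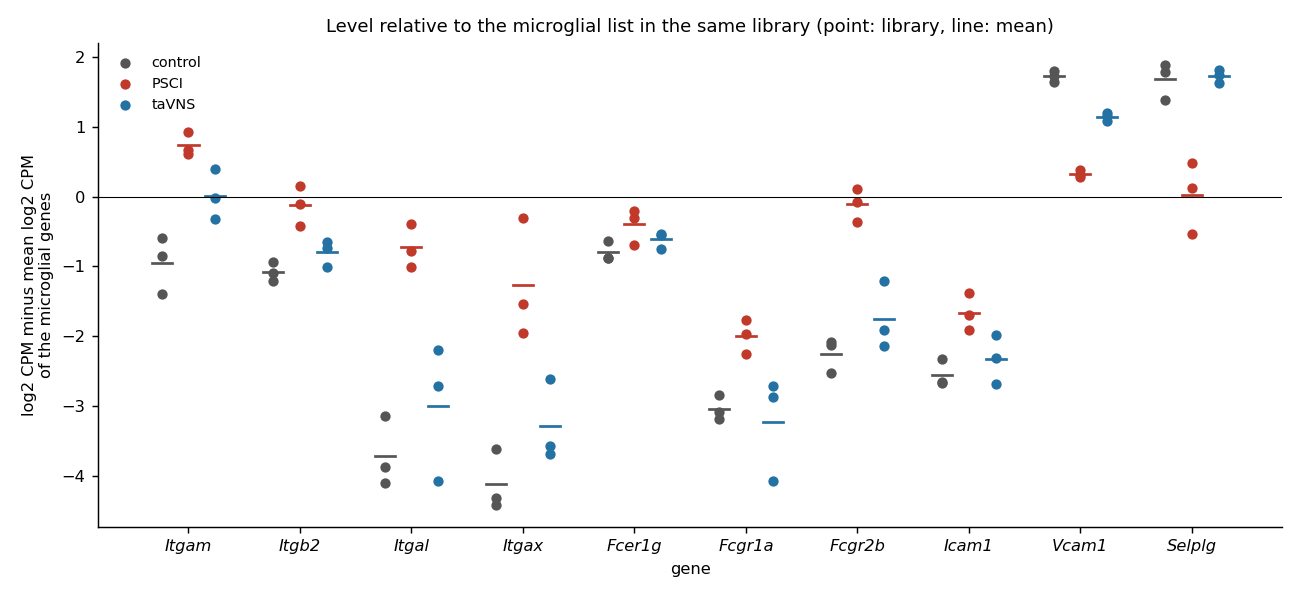
Log2 CPM of each gene minus the mean log2 CPM of 13 microglial genes in the same library, by group, with points for libraries and lines for group means. Fcgr2b rises from between -2.52 and -2.09 in control to between -0.36 and 0.11 in PSCI, whereas the Fcer1g groups overlap.

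Selplg and Vcam1 showed the opposite pattern on this scale. Selplg was 1.38, 1.78 and 1.89 above the microglial mean in control, 0.48, -0.54 and 0.12 in PSCI and 1.74, 1.81 and 1.63 in taVNS. Vcam1 was 1.65, 1.80 and 1.72 above it in control, 0.31, 0.38 and 0.28 in PSCI and 1.19, 1.15 and 1.08 in taVNS. For both, PSCI was lowest without overlap. The microglial mean was itself higher in PSCI (4.57 to 5.24, against 3.80 to 4.16 in control). A gene with an unchanged level would therefore also lie lower in PSCI on this scale, and Vcam1 was not called on its own level. This measure had been planned for Itgam, Itgb2, Fcer1g, Fcgr1a and Fcgr2b only. Selplg is also a homeostatic microglial gene and adjoins Tmem119, another such gene, on the chromosome. Tmem119, singled out after its values were seen, measured 20.0 ± 3.53 CPM (SD, n = 3) in control, 13.5 ± 1.63 CPM in PSCI and 26.1 ± 5.39 CPM in taVNS. It was not called in PSCI against control (log2 -0.56, adjusted p = 0.104) and was higher in taVNS than in PSCI (0.95, adjusted p = 0.0252), a call that was lost without taVNS library 1, taVNS library 3, PSCI library 3 or control library 2, or without both libraries high in meningeal markers. Most other microglial genes did not share this pattern: of the 13 tested, 6 were higher in PSCI than in control, and Selplg was the 1 that was lower. P2ry12, which was not called, measured 14.5 ± 2.40 CPM in control and 23.8 ± 6.38 CPM in PSCI, and Cx3cr1, called higher, 12.99 ± 3.16 and 25.6 ± 5.20 CPM. In taVNS against PSCI, 2 of the 13 were higher, Selplg and Tmem119, and 4 were lower.

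Across the 9 libraries, which share their group structure, the genes that rose tracked one another. As a description, Pearson's r of log2 CPM was 0.99 between Itgax and Icam1, 0.98 between Itgal and Icam1 and 0.98 between Fcgr2b and Icam1. Vcam1 and Selplg ran against Itgb2, at r = -0.39 and -0.79. Among 14215 genes with a mean of at least 1 CPM, those most like Itgb2 over the 9 libraries were Slc35a1 (r = 0.994), Fli1, Mvp, Ms4a6a and Cdca8. Those most like Fcer1g were Itga6 (r = 0.989), Toe1, Lpxn, Lilrb3a and Il10rb. Vcam1 was most like Akt1 (r = 0.956), Zfyve21, Cspg5, Uqcrc1 and Chmp1a.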

How the data were processed

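Rat hippocampus was profiled by poly(A)-selected RNA sequencing, 3 libraries a group. Per the submitters' processing notes, the tools were HISAT2 2.0.4 and RSEM 1.2.8 with the mRatBN7.2 build. Whether counting used strand is not given in the sources used here. The authors deposited expected counts and RPKM per gene and library. The expected counts were rounded, filtered with filterByExpr and scaled by TMM, and all 9 libraries were fitted together with edgeR 4.0.16's quasi-likelihood test (R 4.3.3), with calls at 0.05 after Benjamini-Hochberg adjustment. CPM were scaled by the TMM-adjusted library size, with a prior count of 2 for log2 values. Shares used the deposited RPKM, which depend on each library's total and on transcript length. Alternatives used DESeq2 1.42.0, limma 3.58.1 on log2(RPKM + 0.1) and log2(RPKM + 1), other scaling and filters, a replicate block, the 2 groups alone, and each library left out. The fit was tested on simulated data of 14840 genes: in PSCI against control 53.1% of 2-fold and 92.9% of 4-fold changes were called. There were 11 false calls. The changed genes all had a mean of at least 1 CPM, and no simulated library stood apart in tissue content. These shares need not hold for genes as scarce as Itgax was in control.

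The 10 genes, the gene lists (195 of 199 genes found) and the motifs were chosen with earlier results of these data known. Named besides the 10 were preset partners, at most 4 called genes a list with the smallest p in PSCI against control, and the 5 genes most correlated with Itgb2, Fcer1g and Vcam1. The extraction text speaks of tissue from each mouse although the samples are labelled rat. P-values weigh a group difference against the variation between these libraries. RefSeq tables (GRCr8) matched 18486 of 18733 gene identifiers.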

Additional observations from a re-analysis of the deposited data

How the results depend on the processing

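The direction of all 10 genes in PSCI against control held under the 17 alternatives run, and 8 were called higher except without control library 2 or 3 (6) and PSCI library 3 (7). Leaving out single libraries gave 548 to 2255 called genes for PSCI against control, 172 to 1707 for taVNS against PSCI and 0 to 1 for taVNS against control. It gave 3 to 9 of the 10 genes for taVNS against PSCI. DESeq2 called 2278, 1560 and 7 genes, and the higher share of its calls in taVNS against PSCI was 26.9% against 14.6%. Fits to the 2 groups alone called 806 genes in PSCI against control and 250 in taVNS against PSCI, where 2 of the 10 remained called. Without both libraries high in meningeal markers, 361 genes and 4 of the 10 were called in taVNS against PSCI, and 1 gene in taVNS against control. The cause of these differences was not tested.

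Replicate numbers were shared by the groups, and correlations between libraries did not show a pairing by number. Same-numbered libraries correlated at -0.21 to 0.18 between PSCI and control and -0.47 to 0.04 between taVNS and PSCI. Between taVNS and control they correlated at -0.04 to 0.26, and in each comparison 1 of 3 correlated best with its own number. With 3 libraries a group, this check cannot settle whether libraries were paired. With a replicate block, 1084 genes were called in PSCI against control and 518 in taVNS against PSCI, where 6 of the 10 were called and Itgam (adjusted p = 0.0742) and Fcgr1a (adjusted p = 0.0632) were not.

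Reversals of sign were limited to values that had not been called, and their cause was not tested. With single libraries left out, the log2 fold change in taVNS against PSCI ranged from -0.00293 to 0.37 for Vcam1, -0.33 to 0.11 for Itga4 and -0.462 to 0.0757 for Icam2 (0.0109 without both meningeal-high libraries). In PSCI against control it ranged from -0.18 to 0.27 for Itga4 (-0.17 without both). In taVNS against control it ranged from -0.0262 to 0.59 for Fcgr1a (-0.0366 without both), -0.247 to 0.0717 for Fcgr2a, -0.34 to 0.13 for Itga4 and -0.00240 to 0.0968 for Itgb1. The alpha-chain share differences in taVNS against control ranged from -3.38 to 0.816 points for Itgal, -1.18 to 3.78 for Itgam and -0.635 to 0.341 for Itgax, and in taVNS against PSCI from -0.0441 to 0.167 for Itgad. With 0.1 RPKM added, the Itgad differences were -2.75 in PSCI against control and -1.69 in taVNS against control, and in taVNS against control Itgam stood at 5.65 and Itgax at -1.86. Relative to the microglial genes, Fcgr1a in taVNS against control ranged from -0.44 to 0.24. Depth limits Itgax, Itgal and Fcgr1a most, at 7 to 34 counts in control, and 3 libraries a group limit every test.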
